A study of Bos taurus with 8 samples.

Results

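Transcripts of 10 genes that encode defence proteins of milk, calgranulins and acute-phase proteins were followed in cultured bovine mammary epithelial cells in which EEF1D was targeted by RNA interference. EEF1D encodes a subunit of the exchange complex that reloads translation elongation factor 1 alpha with GTP. The genes were LTF, LPO, PIGR, S100A8, S100A9, S100A12, SAA3, HP, C3 and PGLYRP1, and every array probe that carries one of these gene names was taken, 37 of 43653 probes in all. The cells of all groups were primary cells at the fifth passage, derived by tissue block culture and enzyme digestion from mammary tissue of a lactating Holstein cow. Of 8 single-colour arrays, 3 came from cells with the short hairpin RNA (shRNA) EEF1D-1357, 3 from cells with the shRNA EEF1D-1893, both labelled as EEF1D knockdown, and 2 from control cells labelled as without shRNA. No array is labelled as carrying a non-targeting hairpin, so the presence of a hairpin and the loss of EEF1D cannot be told apart. How the hairpins were delivered, and for how long, is not given in the sources used here. The labels do not say whether replicates were separate cultures, so a p-value measures only the spread between these arrays, which may be technical.

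The epithelium of the mammary gland is part of the innate defence of the udder. It secretes the iron-binding protein lactoferrin (LTF) and the enzyme lactoperoxidase (LPO), carries immunoglobulins into milk with the polymeric immunoglobulin receptor (PIGR), and makes its own serum amyloid A, encoded by SAA3, when bacterial products or inflammatory cytokines reach it. The calgranulins S100A8, S100A9 and S100A12 are calcium-binding proteins that are abundant in neutrophils and are also made by stimulated epithelia, where S100A8 and S100A9 pair into calprotectin and withhold metal ions from microbes.

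Levels are given as scaled log2 signals, the log2 of a probe's processed intensity minus the log2 of the 75th percentile of its array, so that 0 is the level of that percentile and a step of 1 is a doubling. Levels of different probes were not compared with each other. The 75th percentile lay between 1276 and 2100 intensity units. Per array 60.7% to 71.6% of probes stood well above background and 0 were saturated. The precision is limited by the number of arrays. Control replicate 1 had the lowest 75th percentile, and its spike-in controls stood 1.67 log2 units above it against 0.49 to 1.00 in the other arrays. By the file headers, control replicate 2 shared slide 1 with EEF1D-1357, and control replicate 1 shared slide 2 with EEF1D-1893. EEF1D itself, read with its brightest probe A_73_115715, lay at 5.09 to 5.99 in the 6 shRNA arrays, below 7.11 and 6.14 in the controls, with a log2 fold change of -0.89 (SE 0.32, limma adjusted p = 0.219). Its probe A_73_P279701 also lay below both controls in every shRNA array, at -0.88 (SE 0.31). The groups overlapped in its other probes, A_73_P159712 at -1.16 (SE 0.48) and A_73_P265551 at -0.32 (SE 0.33). Of 10 luminal epithelial markers 7 were well above background on all 8 arrays (KRT8, KRT18, KRT7, KRT19, EPCAM, CDH1 and MUC1), ELF5 was so on 1 array, and ESR1 and PGR on none. Of the milk genes, CSN2 and PAEP were well above background on all 8 arrays and LALBA and CSN1S2 on none. For both shRNAs together against control, 7 of 7 basal epithelial markers tested were lower (median log2 fold change -0.41), and 8 of 8 fibroblast markers (median -0.34). Of the luminal markers tested 5 were lower and 2 higher (median -0.26). The median over all probes tested was -0.06 in that comparison. With EEF1D-1893 alone 6 basal markers were lower and 1 higher, and 7 fibroblast markers were lower and 1 higher. In limma 0 of these markers were called, beside 0% of all probes. At an unadjusted p under 0.05, 2 basal, 1 fibroblast and 1 luminal marker were lower for both shRNAs together, beside 10.5% of all probes. The log2 of the summed basal signal was 8.19 to 8.26 in the controls, 7.57 to 7.77 with EEF1D-1357 and 7.23 to 8.32 with EEF1D-1893, and that of the fibroblast markers 6.85 to 7.85, 6.73 to 7.20 and 6.97 to 7.27. The fibroblast sum is mostly VIM, at 6.71 to 7.83, and does not show how the weaker markers varied. COL1A2 read -7.26 to -6.65 with EEF1D-1357, -6.79, -1.78 and 0.82 with EEF1D-1893, and -3.66 and 0.23 in the controls. LUM also varied widely, from -7.47 to -1.83. COL1A1 lay between -0.91 and -0.22, and DCN between -1.73 and -1.31. MYLK, a kinase of contractile cells and a basal marker, lay at -4.84 to -1.55 in the shRNA arrays and at -0.999 and 0.56 in the controls (log2 fold change -3.50, SE 0.92, limma adjusted p = 0.153). The part of such cells in the results that follow was not tested.

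A probe was tested when it was well above background on at least 2 arrays. That held for 22 of the 37 probes, which cover 9 of the 10 genes, since no PIGR probe passed. A further 7 probes were well above background on 1 array, and 8 on none. In each of the 4 comparisons (both shRNAs together against control, each hairpin alone against control, and the hairpins against each other) 0 of the 22 probes were called at a limma adjusted p under 0.05, beside 0% of all 30702 probes tested. At an unadjusted p under 0.05 there were 4 of 22 for both shRNAs against control and 4 of 22 for EEF1D-1357, all of them SAA3 probes that were higher, beside 7.9% and 6.92% of all probes in that direction (18.4% and 17.6% in either direction). In these comparisons 0 of 22 were lower, beside 10.5% and 10.7% of all probes. For EEF1D-1893 against control there were 0 of 22, beside 15% of all probes (7.02% higher and 7.98% lower), and between the hairpins 0 of 22, beside 6.23% (3.71% lower). With slide as a block 0 of 22 were called in any comparison, beside 7.1% of all probes for both shRNAs, 0.29% for EEF1D-1357, 14.8% for EEF1D-1893 and 0.0261% between the hairpins.

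**Figure D1:**
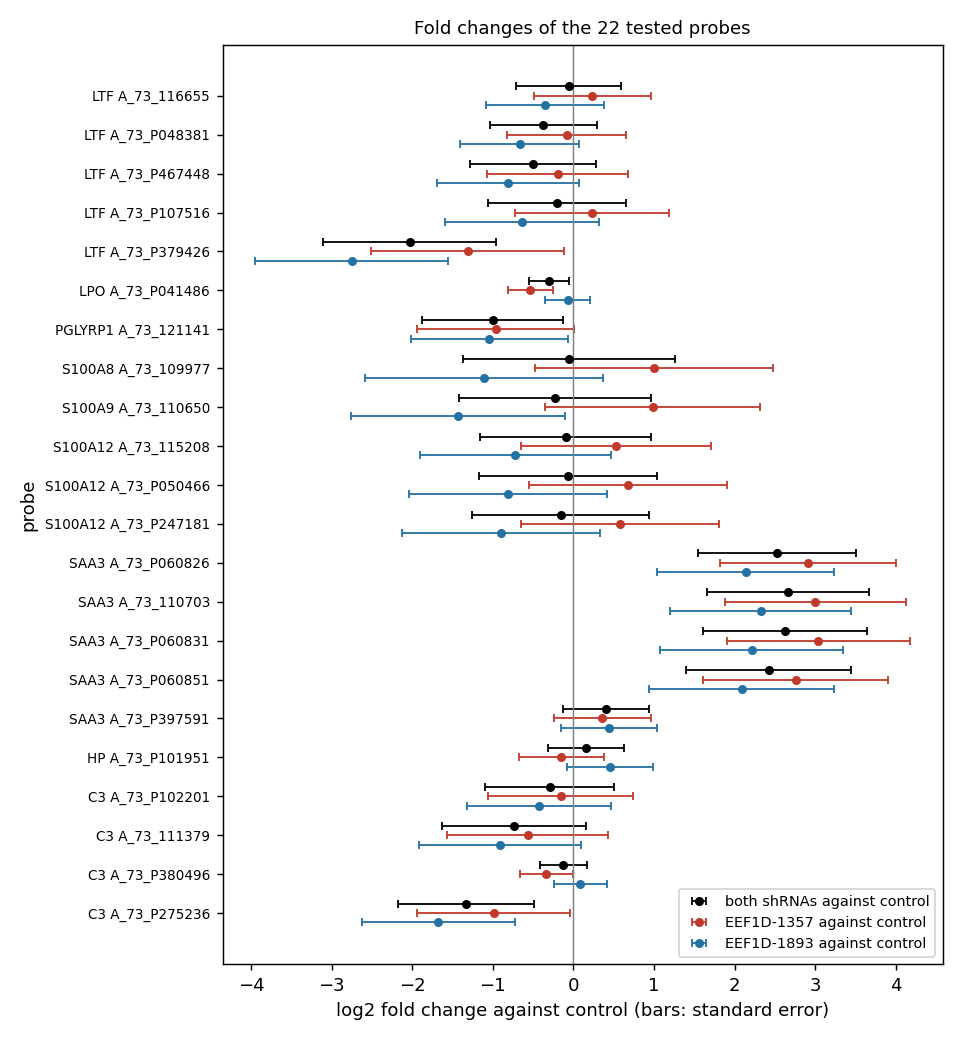
Log2 fold changes of the 22 tested probes against control (horizontal axis) for both shRNAs, EEF1D-1357 and EEF1D-1893, with standard errors from limma as bars. The 4 SAA3 probes that lie between 2.09 and 3.04 stand to the right of the rest, and the calgranulins lie on opposite sides of 0 for the 2 hairpins.

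SAA3, the serum amyloid A isoform secreted by the mammary epithelium, had the largest positive log2 fold changes over control of the 9 genes tested, in both hairpin groups, and did not pass the test. Its brightest probe, A_73_P060826 on chromosome 29 from 27684334 to 27684393 (minus strand, build Btau_3.1 by the files), read -0.60, 0.88 and -2.66 in EEF1D-1357 replicates 1 to 3. It read -2.23, -2.50 and 0.05 in EEF1D-1893 replicates 1 to 3, and -3.72 and -3.68 in control replicates 1 and 2. All 6 shRNA arrays lay above both controls, and within each hairpin group the arrays differed by far more than the controls did. The mean was -0.79 ± 1.78 (SD, n = 3) for EEF1D-1357. It was -1.56 ± 1.40 (SD, n = 3) for EEF1D-1893, and -3.70 ± 0.03 (SD, n = 2) for control. The log2 fold change of both shRNAs was 2.52 (SE 0.98), or 5.74-fold, with a limma adjusted p of 0.243 and a 95% interval from 0.22 to 4.82 before adjustment.

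The hairpins gave SAA3 values on the same side of control. For A_73_P060826 the log2 fold change was 2.91 (SE 1.09, limma adjusted p = 0.250) with EEF1D-1357 and 2.14 (SE 1.09, adjusted p = 0.406) with EEF1D-1893. These comparisons share the 2 control arrays. The difference between the hairpins was 0.77, with a 95% interval from -1.53 to 3.07. Within the slides, each hairpin against the control on its own slide, the differences were 2.89 and 2.16, and with slide as a block the adjusted p for both shRNAs was 0.186. Replicate 2 of EEF1D-1357 and replicate 3 of EEF1D-1893 were the highest arrays of their groups. Without EEF1D-1893 replicate 3 the log2 fold change of EEF1D-1893 was 1.33, and without EEF1D-1357 replicate 2 that of EEF1D-1357 was 2.07.

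The other probes of the SAA3 transcript were also highest in EEF1D-1357 replicate 2, EEF1D-1893 replicate 3 and EEF1D-1357 replicate 1 and lowest in the controls, and the order of the remaining arrays differed between probes. A_73_110703 read -0.98, 0.44 and -2.96 with EEF1D-1357, -2.77, -2.73 and -0.02 with EEF1D-1893, and -4.05 and -4.28 in control. A_73_P060831 read -2.27, -0.78 and -4.20 with EEF1D-1357, -4.27, -4.06 and -1.40 with EEF1D-1893, and -5.34 and -5.57 in control, the last not well above background. A_73_P060851 read -2.32, -0.86 and -4.48 with EEF1D-1357, -4.00, -4.21 and -1.46 with EEF1D-1893, and -5.27 and -5.35 in control. In each of them every shRNA array was above both controls, which held for 8.14% of all probes tested. Their log2 fold changes over both shRNAs were 2.66, 2.62 and 2.42. Pairs of the 3 SAA3 probes that were well above background on all 8 arrays had correlations over the 8 arrays of 0.996 to 0.998, and these probes overlap or share a transcript, so they are not independent readings.

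**Figure D2:**
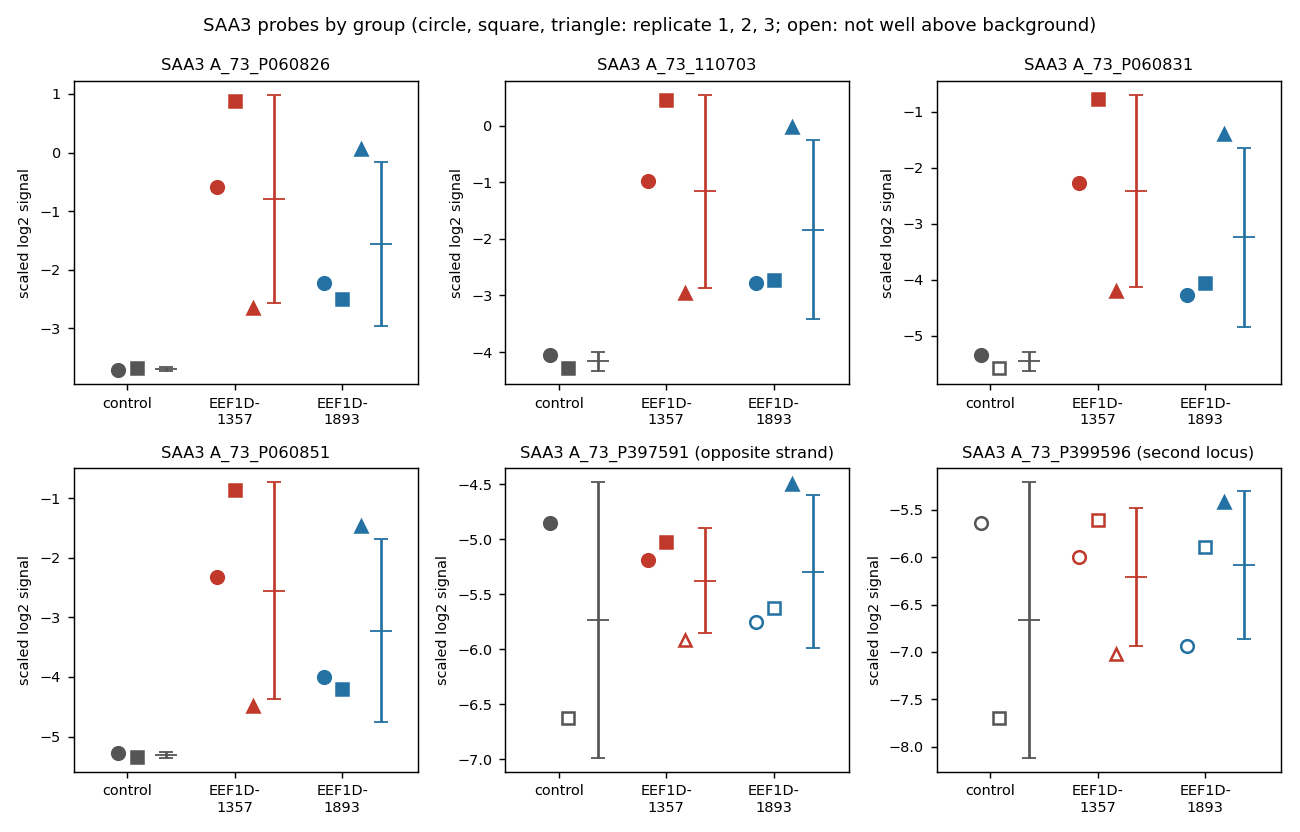
Scaled log2 signal (vertical axis) of 6 SAA3 probes in each array by group, with the mean and SD beside the points and open symbols where the spot was not well above background. In the 4 probes of the SAA3 transcript every shRNA array lies above both controls, which does not hold for the opposite-strand probe A_73_P397591.

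Serum amyloid A genes lie next to each other and resemble each other. In the RefSeq gene order of ARS-UCD2.0, used for order only, chromosome 29 carries SAA3, LOC104968478, SAA2, SAA4 and M-SAA3.2 in a row. By the accessions in the files, A_73_P060831 and A_73_P060851 match transcripts of both SAA3 and M-SAA3.2, A_73_P060826 matches SAA3, M-SAA3.2 and SAA2, and A_73_110703 matches SAA3 alone. A pair of SAA3 probes and the SAA2 probe A_73_P035636 hold the same run of 24 bases, shown in capitals, because it bounds how far their readings can be assigned to a single gene.
SAA3 A_73_P060831: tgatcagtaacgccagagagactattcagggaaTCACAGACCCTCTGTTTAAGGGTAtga
SAA3 A_73_P060851: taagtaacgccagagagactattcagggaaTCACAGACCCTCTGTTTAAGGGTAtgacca
SAA2 A_73_P035636: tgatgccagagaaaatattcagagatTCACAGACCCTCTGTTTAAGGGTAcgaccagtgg
The SAA2 probe A_73_P035636 was well above background on 0 of the 8 arrays, while both SAA3 probes with the same run were so on 7 and 8 arrays. In the genome A_73_P060831 spans 27684560 to 27685007, or 448 bases for a probe of 60 bases, so its match to the genome has a gap. Exons and untranslated regions were not annotated here.

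M-SAA3.2, a close copy of SAA3, could not be told apart from it. Its own probe A_73_P103046, at 27773855 to 27773914 on the plus strand, read -1.79, -0.35 and -3.98 with EEF1D-1357, -3.71, -3.84 and -1.24 with EEF1D-1893, and -4.96 in both controls. The log2 fold change over both shRNAs was 2.48 (SE 1.01, limma adjusted p = 0.257), and the probe shares a run of 24 bases with the SAA3 probes A_73_110703 and A_73_P060826. Of the other copies, both SAA4 probes were well above background on 0 arrays, and the second SAA2 probe, A_73_P205422, on 2 arrays, with a log2 fold change of 0.08 (SE 0.59).

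The remaining SAA3 probes carry the accession of an expressed sequence tag, DV793268. A_73_P397591 lies at 27685076 to 27685135 on the plus strand, opposite to the SAA3 transcript, and A_73_P399596 lies at 27772750 to 27773150 on the minus strand, opposite to the strand of the M-SAA3.2 probe. They hold the same run of 47 bases, in capitals.
SAA3 A_73_P397591: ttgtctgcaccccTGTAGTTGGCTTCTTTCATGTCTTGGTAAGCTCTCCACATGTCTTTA
SAA3 A_73_P399596: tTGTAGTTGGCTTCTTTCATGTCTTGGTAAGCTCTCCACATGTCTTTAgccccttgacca
A_73_P397591 was well above background on 4 arrays, at -5.19 and -5.02 in EEF1D-1357 replicates 1 and 2, -4.50 in EEF1D-1893 replicate 3 and -4.85 in control replicate 1. Its groups overlapped, and its log2 fold change over both shRNAs was 0.40 (SE 0.54, limma adjusted p = 0.713). A_73_P399596 was well above background on 1 array and the third such probe, A_73_P154997, which the files place nowhere in the genome, on none.

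Haptoglobin (HP), an acute-phase protein that binds free haemoglobin, was close to background. Its probe A_73_P101951 on chromosome 18, from 38133699 to 38133757, was well above background in EEF1D-1893 replicate 2 at -4.83 and in control replicate 1 at -5.73. Its other 6 readings lay between -6.78 and -6.01, not well above background. The log2 fold change over both shRNAs was 0.15 (SE 0.47, limma adjusted p = 0.887), and the other HP probes, A_73_P400651 and A_73_104190, were well above background on 0 arrays.

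The calgranulins varied widely between arrays and did not separate the hairpin groups from control. S100A8 (A_73_109977, chromosome 3 from 18482908 to 18482967) read -0.79, 0.71 and -3.43 in EEF1D-1357 replicates 1 to 3, -4.57, -4.20 and -1.08 in EEF1D-1893 replicates 1 to 3, and -3.32 and -1.03 in the controls. S100A12 (A_73_115208, chromosome 3 from 18500255 to 18500314) read 1.50, 2.95 and -0.21 with EEF1D-1357, -0.94, -0.62 and 2.04 with EEF1D-1893, and -0.03 and 1.80 in the controls. S100A9 (A_73_110650, chromosome 3 from 18511639 to 18511698) read -3.12, -0.86 and -4.93 with EEF1D-1357, -6.33, -6.43 and -3.39 with EEF1D-1893, and -4.65 and -3.25 in the controls. EEF1D-1357 replicate 2 was the highest array for each of the 3 genes and EEF1D-1893 replicates 1 and 2 the lowest pair, with the controls in between. The S100A9 readings of EEF1D-1357 replicate 3 and of EEF1D-1893 replicates 1 and 2 were not well above background.

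The log2 fold changes of both shRNAs against control were -0.05 (SE 1.32) for S100A8, -0.10 (SE 1.06) for S100A12 and -0.23 (SE 1.19) for S100A9, with limma adjusted p between 0.936 and 0.988. The hairpins pointed to opposite sides of control for each gene. S100A8 stood at 1.00 with EEF1D-1357 and -1.11 with EEF1D-1893, S100A12 at 0.53 and -0.72, and S100A9 at 0.98 and -1.43. The difference between the hairpins was 2.11 (SE 1.32) for S100A8, 1.25 (SE 1.06) for S100A12 and 2.42 (SE 1.19) for S100A9, with limma adjusted p of 0.778, 0.812 and 0.775. The controls themselves differed by 2.30 for S100A8, 1.83 for S100A12 and 1.41 for S100A9, replicate 1 being the lower, and they lie on different slides. With slide as a block the difference between the hairpins was -0.18 (SE 2.72) for S100A8, -0.58 (SE 2.18) for S100A12 and 1.01 (SE 2.56) for S100A9. Each hairpin lies on a slide of its own, so these values rest on the single control array of each slide.

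**Figure D3:**
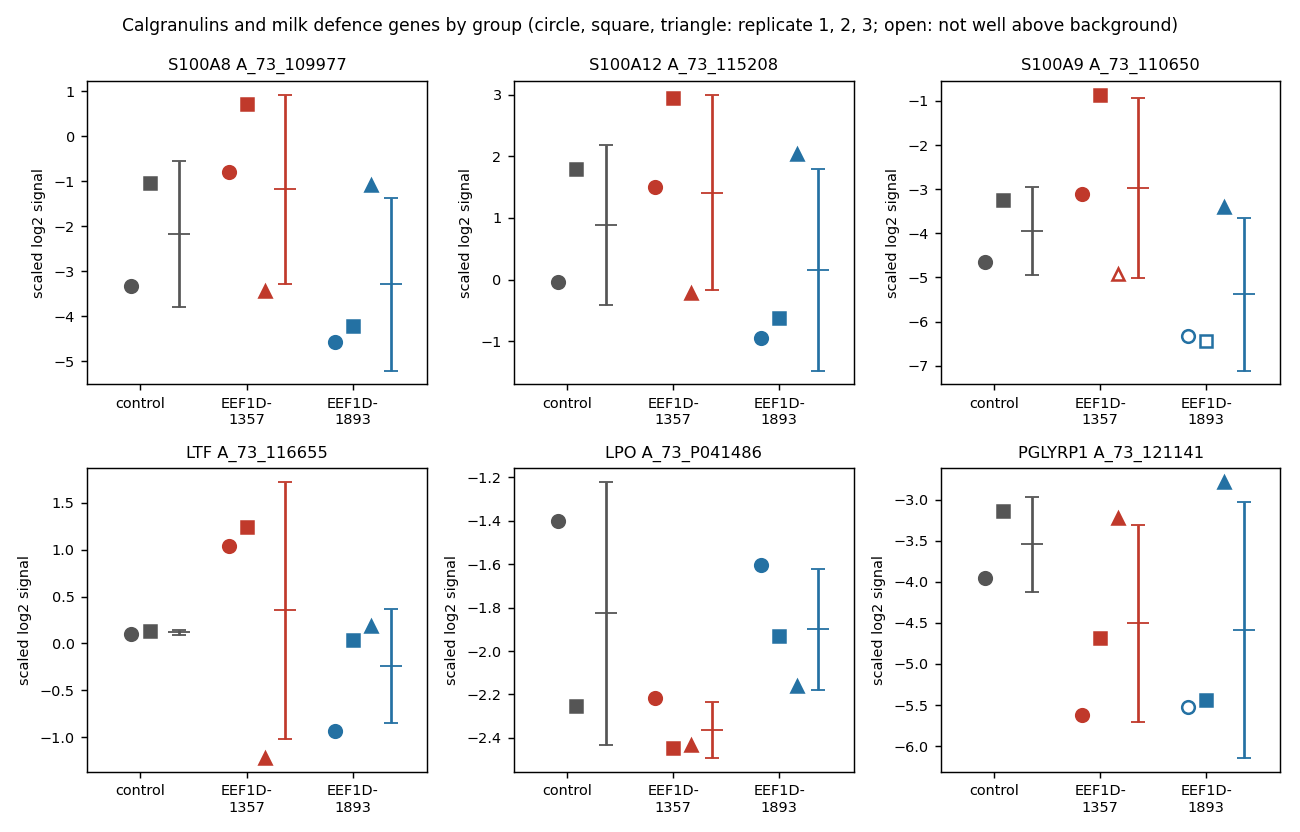
Scaled log2 signal (vertical axis, a range of its own in each panel) of S100A8, S100A12, S100A9, LTF, LPO and PGLYRP1 in each array by group, with the mean and SD beside the points. For the 3 calgranulins EEF1D-1357 replicate 2 is the highest array, EEF1D-1893 replicates 1 and 2 are the lowest, and both controls lie within the range of the shRNA arrays.

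S100A8 and S100A12 followed each other over the arrays (r = 0.989, 8 arrays that share labelling and slides), and the 3 S100A12 probes had correlations among themselves of 0.997 to 0.998. In the RefSeq order the genes lie in a row on chromosome 3 as S100A8, S100A12 and S100A9. Their probes differ in sequence, as a probe from the S100A12 transcript and the S100A9 probe show. The longest run these hold in common is 5 bases, in capitals, and no pair of probes from different calgranulins shares more than 7.
S100A12 A_73_P247181: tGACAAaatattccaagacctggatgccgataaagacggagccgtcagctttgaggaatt
S100A9 A_73_110650: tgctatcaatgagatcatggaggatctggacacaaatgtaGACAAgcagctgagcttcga
A_73_P247181 read 0.06, 1.55 and -1.82 with EEF1D-1357, -2.65, -2.31 and 0.31 with EEF1D-1893, and -1.63 and 0.34 in control. The second S100A9 probe, A_73_P203337, has the accession of an expressed sequence tag on the strand opposite to S100A9 and was well above background on 1 array.

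Calgranulins are abundant in neutrophils, so the markers of these cells were read beside them. Of the neutrophil markers reported here, ELANE was well above background on 6 arrays, CXCR2 on 2, CSF3R, ITGAM and FCGR3A on 1 each, and MPO and CXCR1 on none. ITGAM was well above background in EEF1D-1357 replicate 2 alone, at -2.91, the array with the highest calgranulin signals. Other neutrophil markers were low in that array. ELANE, at -5.55, was at its lowest of the 8 arrays there. CXCR2 and CSF3R, at -7.11 and -7.28, were lower only in control replicate 2. Of 5 general leukocyte markers PTPRC, CD53, LCP1 and TYROBP were well above background on all 8 arrays. The fifth, CORO1A, was so on 6, and read -2.34 and -2.75 in EEF1D-1357 replicates 1 and 2 and -3.16 in EEF1D-1893 replicate 3, against -6.06 to -4.41 in the other 5 arrays. The arrays where CORO1A was high are those where SAA3, S100A8 and S100A9 were highest among the hairpin arrays. None of the other leukocyte markers was highest in that same set of hairpin arrays, but PTPRC came close. Among the hairpin arrays PTPRC was highest in EEF1D-1357 replicate 2, at 2.38, and EEF1D-1893 replicate 3, at 1.93. It read 1.70 and 1.78 in EEF1D-1357 replicates 1 and 3. CD53 was highest of the hairpin arrays in EEF1D-1357 replicate 1, at 0.84, and EEF1D-1893 replicate 2, at 0.26. LCP1 was highest in EEF1D-1357 replicate 3, at 4.20, and TYROBP was lowest of the hairpin arrays in EEF1D-1357 replicate 2, at -3.77. In control replicate 2, S100A8 and S100A9 read -1.03 and -3.25, and CORO1A read -4.86. The log2 of the summed signal of the 5 leukocyte markers ranged from 3.08 to 3.75 in the controls, 3.60 to 4.51 with EEF1D-1357 and 4.01 to 4.17 with EEF1D-1893. The part of such cells in the calgranulin or SAA3 signals was not tested. In these bulk cultures fewer cells of a type and less RNA per cell cannot be told apart.

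Among the secreted milk defence proteins, lactoferrin (LTF) was measured by 5 probes, and in each of them shRNA arrays lay on both sides of a control. The brightest, A_73_116655 on chromosome 22 from 54347128 to 54347187, read 1.04, 1.24 and -1.22 in EEF1D-1357 replicates 1 to 3. It read -0.94, 0.04 and 0.19 in EEF1D-1893 replicates 1 to 3, and 0.10 and 0.13 in the controls. The controls lay close together within the range of each hairpin group, with EEF1D-1357 replicates 1 and 2 above them and EEF1D-1357 replicate 3 and EEF1D-1893 replicate 1 below. The log2 fold change was -0.06 (SE 0.65, limma adjusted p = 0.971) for the hairpins together, 0.24 for EEF1D-1357 alone and -0.36 for EEF1D-1893 alone. A_73_P048381 gave the same order of arrays in outline (r = 0.983 over 8 arrays) and a log2 fold change of -0.37 (SE 0.66). At that probe the EEF1D-1893 arrays, at -3.31, -2.36 and -2.09, lay below both controls, at -2.03 and -1.81, and those of EEF1D-1357 spread from -3.57 to -1.05.

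The LTF probes nearer the 5′ end of the transcript were detected on fewer arrays. Those that start at bases 2349 and 2169 of NM_180998 were well above background on all 8 arrays, those at bases 2067 and 989 on 6 and 5, and A_73_P379426, at base 316, on 2. That last probe read -2.52 in control replicate 2, -5.29 in EEF1D-1357 replicate 1 and -7.91 to -5.54 in the other 6 arrays, which were not well above background. Its log2 fold change of -2.03 (SE 1.07, limma adjusted p = 0.350) rests on control replicate 2. Without that array it was 0.16.

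Lactoperoxidase (LPO), which makes antimicrobial hypothiocyanite in milk, had a single probe, A_73_P041486 on chromosome 19 from 8460280 to 8460339, and the narrowest range over the arrays of the 22 probes tested, 1.05. It read -2.22, -2.44 and -2.43 with EEF1D-1357, -1.61, -1.93 and -2.16 with EEF1D-1893, and -1.40 and -2.25 in control. EEF1D-1357 lay low as a group, around control replicate 2, and control replicate 1 was the highest array. The log2 fold change was -0.31 (SE 0.25, limma adjusted p = 0.535) for the hairpins together, -0.54 (SE 0.28, adjusted p = 0.352) for EEF1D-1357 alone and -0.07 (SE 0.28) for EEF1D-1893 alone. Without control replicate 1 the value over both shRNAs was 0.12, and without control replicate 2 it was -0.73. In that last setting EEF1D-1357 against control was called for LPO, at -0.97 (limma adjusted p = 0.0383), beside 22.5% of all probes called. A lone control array is assumed there to vary like the other groups.

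PGLYRP1, a bactericidal protein that binds peptidoglycan, lay lower on average in both hairpin groups without separating them from control. Its probe A_73_121141, on chromosome 18 from 53309040 to 53309099, read -5.62, -4.68 and -3.23 with EEF1D-1357, -5.53, -5.44 and -2.79 with EEF1D-1893, and -3.95 and -3.13 in the controls. Replicate 3 of each hairpin lay among the controls or above, while replicates 1 and 2 of each lay below both controls, and EEF1D-1893 replicate 1 was not well above background. The log2 fold changes were -0.96 (SE 0.97) with EEF1D-1357 and -1.04 (SE 0.97) with EEF1D-1893, and for the hairpins together the 95% interval ran from -3.05 to 1.04 (limma adjusted p = 0.559). The other probe, A_73_P430106, was well above background on 1 array.

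PIGR, the receptor that carries IgA and IgM across the epithelium, was at background outside a single control. Its overlapping probes A_73_115481 and A_73_P045951 share a run of 47 bases and lie on chromosome 16 from 3730287 to 3730345 and from 3730274 to 3730333. They read -3.84 and -3.74 in control replicate 2, where both were well above background. In the other 7 arrays they lay between -7.98 and -5.86, none of them well above background. Each hairpin array was then set at its lowest detected signal, taken over probes above background. Against that, the control mean of A_73_115481 was 1.26-fold higher than EEF1D-1357 and 1.54-fold higher than EEF1D-1893. For A_73_P045951 it was 1.46-fold and 1.79-fold higher. Only 1 of the 2 controls had measured these probes. The control mean includes the reading of control replicate 1, which was not well above background, so these values are not lower bounds and rest on control replicate 2. The third probe, A_73_P303751, was well above background on 0 arrays.

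C3, the central component of complement, was measured by 10 probes of NM_001040469 on chromosome 7, of which 4 were tested. The brightest, A_73_P102201 from 16354080 to 16354139, read -3.42, -2.10 and -5.55 in EEF1D-1357 replicates 1 to 3, the last not well above background. It read -4.30, -3.29 and -4.28 in EEF1D-1893 replicates 1 to 3, and -3.33 and -3.73 in the controls. Replicate 2 was the highest array in each hairpin group, the controls lay within the range of the EEF1D-1357 arrays, and the log2 fold change was -0.29 (SE 0.80, limma adjusted p = 0.869). The other tested probes had -0.13 (SE 0.29) for A_73_P380496, -0.74 (SE 0.90) for A_73_111379 and -1.33 (SE 0.85) for A_73_P275236. Without control replicate 2, A_73_P380496 was called at -0.71 over both shRNAs (limma adjusted p = 0.0495) and at -0.92 with EEF1D-1357 (adjusted p = 0.0318), beside 22.7% and 22.5% of all probes called.

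As with LTF, the C3 probes near the 3′ end were detected on the most arrays. The probe that starts at base 4914 of the transcript was well above background on 7 arrays, that at 4676 on 5 and that at 4513 on 3. The probes at bases 621, 783, 1872 and 2439 were well above background on 0 arrays, that at 3058 on 4, and those at 2284 and 3912 on 1 each. The cRNA was made with an amplification kit from total RNA, per the labels' protocols, and the part of probe position in the signal was not tested.

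**Figure D4:**
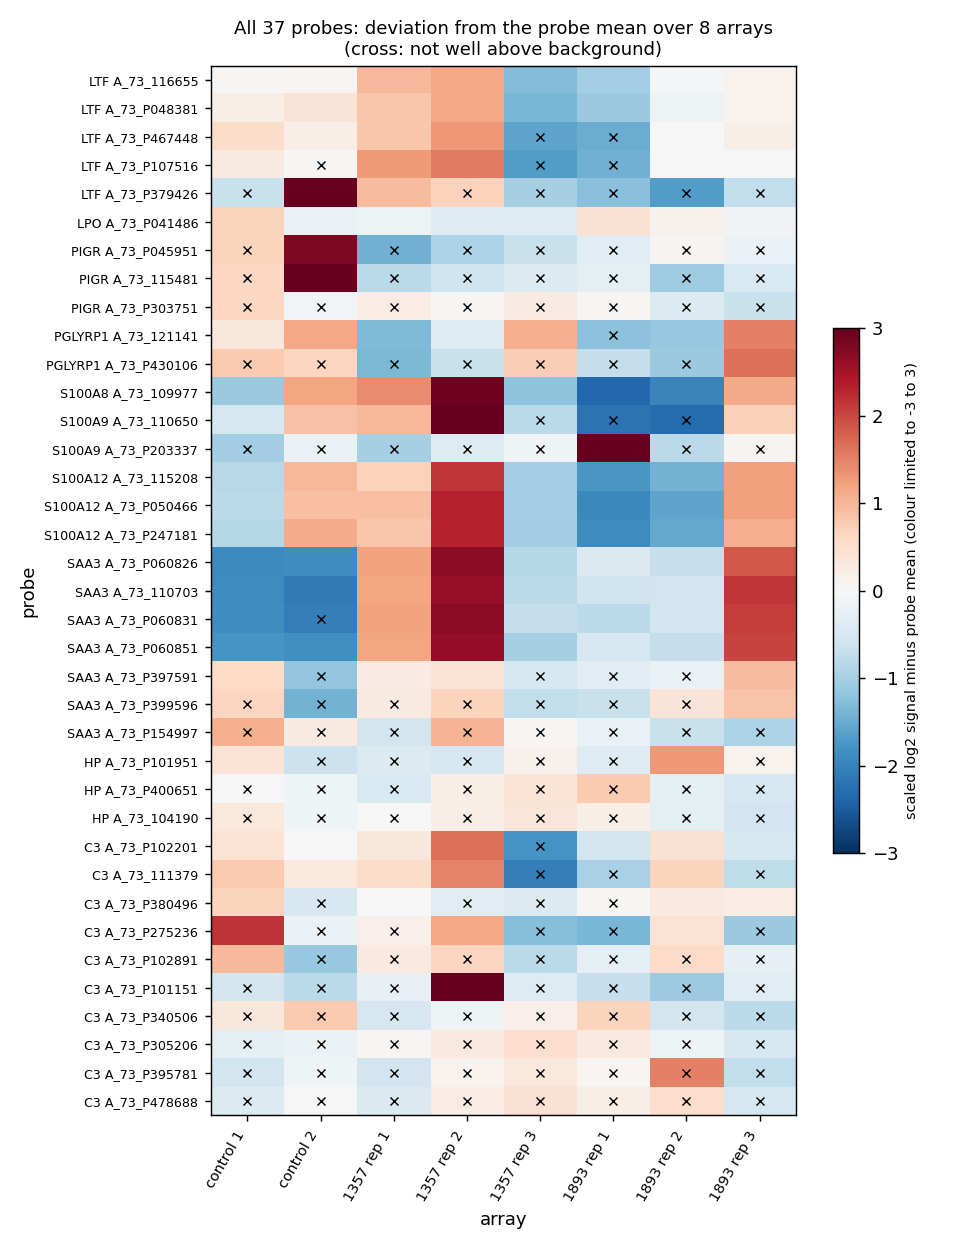
Deviation of each of the 37 probes (rows) from its own mean over the 8 arrays (columns), in scaled log2 units with the colour limited to -3 to 3, and a cross where the spot was not well above background. The 4 SAA3 transcript probes are low in both controls, whereas S100A8, the S100A12 probes and S100A9 A_73_110650 are lowest in EEF1D-1893 replicates 1 and 2.

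Most member probes varied between arrays more than a typical probe. The range over the 8 arrays had a median of 3.56 log2 units over the 22 tested member probes, beside 0.91 over all 30702, and 14 of the 22 lay above the 95th percentile of all probes (3.05). These 14 are probes of SAA3, S100A12, C3, LTF, S100A8 and S100A9. Several belong to the same gene, so they are not independent readings. Of the 22, 10 were well above background on all 8 arrays. S100A9 had the widest range at 5.56, which 0.489% of all probes exceeded, followed by the LTF probe A_73_P379426 at 5.39 and S100A8 at 5.28. S100A8, S100A12 (A_73_115208) and the SAA3 probe A_73_P060826, at ranges of 5.28, 3.89 and 4.60, were well above background on all 8 arrays, while S100A9 was so on 5 and A_73_P379426 on 2. The median log2 fold change of the 22 probes was -0.14 for the hairpins together, 0.23 for EEF1D-1357 and -0.65 for EEF1D-1893, beside -0.06, -0.08 and -0.03 over all probes. Of the 22, 6 were higher and 16 lower than control for the hairpins together, 12 and 10 for EEF1D-1357, and 7 and 15 for EEF1D-1893.

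Over the 8 arrays LTF had correlations of 0.795 with S100A8 and 0.763 with S100A12, and SAA3 of 0.654 and 0.652 with the same genes, whereas LPO had negative ones with all 4 (-0.26 to -0.65). These are descriptions over 8 arrays in 3 groups, scaled by a shared percentile. Among 10227 genes well above background on all arrays, from which the members were left out of the ranking, M-SAA3.2 (r = 0.999) and FAM43A (0.958) were the most like SAA3. The SAA3 probe used, A_73_P060826, also matches the M-SAA3.2 transcript, so the SAA3 and M-SAA3.2 readings are not independent. TAOK3 was the most like both S100A8 (0.968) and S100A12 (0.986), followed by USP18 (0.940) for S100A8 and SRPX2 (0.940) for S100A12. CDIPT (0.973) and TGM1 (0.940) were the most like LTF, and ATG16L1 (0.980) and MCART1 (0.972) the most like LPO.

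Related genes were read from 5 lists, with the brightest probe of each gene, and 0 genes of any list were called in any of the 4 comparisons with limma. Of the other S100 genes and their receptor AGER 12 were tested, with 5 higher and 7 lower over both shRNAs and a median log2 fold change of -0.08. At an unadjusted p under 0.05, 0 were higher and 3 lower: AGER at -0.74, S100A1 at -1.32 and S100A4 at -0.91, beside 7.9% of all probes higher and 10.5% lower. AGER, the receptor for advanced glycation end products, which binds S100A12, read -2.99 to -2.68 in the shRNA arrays and -1.84 and -2.20 in the controls, so that the groups did not overlap (9.99% of all probes lay below both controls in every shRNA array).

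Of the genes that induce these defence proteins, interleukin 1, interleukin 6 and TNF with their receptors and transcription factors, 29 were tested. Of these 17 were higher and 12 lower, with a median of 0.06, and at an unadjusted p under 0.05 there were 4 higher and 3 lower, beside 7.9% and 10.5% of all probes. IL1RN, the antagonist of the interleukin 1 receptor, had a log2 fold change of 0.68 (SE 0.16), with 3.01 to 3.44 in the shRNA arrays and 2.66 and 2.30 in the controls. TLR2, a receptor for bacterial lipoproteins, had -0.70 (SE 0.17), and STAT3, which carries the interleukin 6 signal, had -0.53 (SE 0.16). Their limma adjusted p lay between 0.141 and 0.178.

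Of the other acute-phase genes 10 were tested, with 5 higher, 5 lower and a median of -0.08. Besides M-SAA3.2, those with the smallest p were ORM1 at -0.71 and SERPINA1, the inhibitor of neutrophil elastase, at -0.86. Of the other complement genes 14 were tested, with 7 higher, 7 lower and a median of -0.03. CD55, which breaks up complement convertases on the cell surface, had 1.04 (SE 0.28), CFB, the protease of the alternative convertase, had 0.96 (SE 0.41), and CFP, which stabilises it, had -0.67 (SE 0.23). Of the other milk and mucosal defence genes 22 were tested, with 10 higher, 12 lower and a median of -0.11. Those with the smallest p were SLPI, an inhibitor of neutrophil elastase, at 1.65 (SE 0.55), WFDC2 at -1.05 (SE 0.37) and the cathelicidin CATHL5 at 0.38.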

How the data were processed

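Total RNA was labelled with Cy3 and hybridised to 8 bovine Agilent arrays, with 3, 3 and 2 arrays in the groups EEF1D-1357, EEF1D-1893 and control. Per the file headers, the deposited scanner columns hold the intensity of each spot, written by Feature Extraction 10.7.3.1 (9.1 per the submitters' processing notes), with background subtracted and no normalization between arrays. Other deposited columns are 0 or 1 flags for spots well above background, saturated or outlying. The deposited series table holds log2 values with the median at 7.55 on each array (r of 0.998 to 1.000 with the scanner values), and was used as an alternative.

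From the 43653 non-control probes, 238 that were outliers on at least 1 array were dropped, and 30702 well above background on at least 2 were tested. The log2 intensity minus the 75th percentile of each array was fitted with limma 3.58.1 in R 4.3.3, with 1 mean per group and each probe as its own feature (5 residual degrees of freedom and 2.23 from the prior). Tests were two-sided, with Benjamini-Hochberg adjustment over all tested probes and a threshold of 0.05. The workflow was tested on simulated data. Genes are named as in the files, coordinates are of Btau_3.1 as in the files, and the RefSeq table of ARS-UCD2.0 gave gene order and the symbols to which named similar genes were restricted. Promoter motifs were not analysed here. A neutrophil marker, and the summed signal that includes it, are not reported here. Named are all members with their probes, EEF1D, up to 3 genes per list by smallest p and the 2 genes most like each member detected on all arrays; where other probes or genes are named, they were chosen after their values were seen. The members and lists were chosen with earlier results of these data known. Alternatives were normexp with quantile normalization, quantile normalization, median scaling, no filter, a filter on all 8 arrays, 1 probe per gene, the deposited table, a trended robust prior, only the groups compared, replicate or slide as a block, and each array left out.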

Additional observations from a re-analysis of the deposited data

Results flagged for a closer look

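Among the member probes that were well above background on a single array and so entered no test, 4 had that signal in a hairpin array and none in either control. C3 A_73_P101151 read -2.77 in EEF1D-1357 replicate 2 against -7.97 to -7.11 in the other 7 arrays. S100A9 A_73_P203337, on the strand opposite to S100A9, read -3.68 in EEF1D-1893 replicate 1 against -8.18 to -7.05. PGLYRP1 A_73_P430106 read -5.16 in EEF1D-1893 replicate 3 against -8.16 to -6.04, the array in which the other PGLYRP1 probe, A_73_121141, was also highest. SAA3 A_73_P399596 read -5.41 in EEF1D-1893 replicate 3 against -7.69 to -5.61, a difference of a size that the other arrays also show. These are single readings without a replicate. No group holds 4 or more arrays, so single arrays were not tested as outliers.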

How the results depend on the processing

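No member probe was called with limma under any other scaling, filter, prior or block that was run. With an array left out, 0 to 1 member probes were called for both shRNAs and 0 to 2 for EEF1D-1357, the highest without control replicate 2. The EEF1D probe ran from -1.38 (past the threshold without control replicate 2, limma adjusted p = 0.0370) to -0.41 for both shRNAs and from -1.48 to -0.50 for EEF1D-1357. SAA3 (A_73_P060826) against control kept its direction in each setting run, at 2.09 to 2.62 for both shRNAs across the other settings and 2.10 to 2.99 with an array left out. The opposite-strand probe A_73_P397591 did not, at -0.44 for EEF1D-1893 with slide as a block and -0.49 to 1.29 for both shRNAs with an array left out. These signs turned, and the cause was not tested. With normexp and quantile normalization, S100A8 and S100A9 for both shRNAs were 0.19 and 0.21, C3 and HP for EEF1D-1357 were 0.12 and 0.14, and LPO for EEF1D-1893 was 0.029. With quantile normalization S100A8 for both shRNAs was 0.013, and C3 and HP for EEF1D-1357 were 0.012 and 0.28. With the deposited table these were 0.01, 0.01 and 0.28. With median scaling LTF and S100A8 for both shRNAs were 0.027 and 0.033. With slide as a block, C3, HP, S100A12 and S100A8 for EEF1D-1357 were 0.044, 0.38, -0.39 and -0.14. HP, S100A12 and S100A8 for EEF1D-1893 were -0.072, 0.19 and 0.037, and HP, LPO, PGLYRP1, S100A12 and S100A8 between the hairpins were 0.45, 0.39, -0.74, -0.58 and -0.18.

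With the replicate number as a block, C3 and LTF for both shRNAs were 0.25 and 0.23, C3 for EEF1D-1357 was 0.39, and C3 and LPO for EEF1D-1893 were 0.12 and 0.0087. SAA3 for both shRNAs was 2.58 under that block (limma adjusted p = 0.318). Same-numbered arrays had correlations of -0.07 to 0.16 in their deviations from the group means, so the numbers were not taken to pair the arrays.

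With an array left out, these also turned sign. For both shRNAs C3 ran from -0.69 to 0.17, HP from -0.38 to 0.68, LPO from -0.73 to 0.12, LTF from -0.28 to 0.33, S100A12 from -1.01 to 0.82, S100A8 from -1.20 to 1.09 and S100A9 from -0.93 to 0.48. For EEF1D-1357 C3 ran from -0.95 to 0.77, HP from -0.68 to 0.38, LTF from -0.21 to 1.02, S100A12 from -0.39 to 1.44, S100A8 from -0.14 to 2.15 and S100A9 from -0.072 to 1.96. For EEF1D-1893 HP ran from -0.072 to 0.98, LPO from -0.50 to 0.35, S100A12 from -1.66 to 0.19 and S100A8 from -2.26 to 0.037. Between the hairpins C3 ran from -0.53 to 1.20, PGLYRP1 from -0.56 to 0.98 and SAA3 from -0.065 to 1.70. The fit on the groups compared alone does not apply to both shRNAs, and the filter on all 8 arrays leaves out C3, HP, PGLYRP1 and S100A9. Probes near background limit HP, PIGR and most C3 readings.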
